A study of Mus musculus with 2 samples.

Results

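*Mecom*, *Hlf*, *Adgrg1*, *Neurl3*, *Ikzf2* and *Bcl11a* are genes associated with hematopoietic stem cells or with the hematopoietic fate of endothelial cells. They were taken by name, as 6 of the 23154 genes with a row in the count tables, and all 6 had counts. They were followed through 87 single cells of the yolk sac of C57BL/6 mouse embryos at E10.0, sorted as CD41-CD43-CD45-CD31+CD201+Kit+CD44+ and called PK44, an immunophenotype used to capture hemogenic endothelial cells. The cells came in 2 libraries made by modified STRT-seq, a well-based method that reads the 3′ end of transcripts and counts unique molecular identifiers, with 43 cells in replicate 1 and 44 in replicate 2. All cells belong to 1 condition with no treatment or genetic change, and the labels do not tie a cell to an embryo. The library was therefore the replicate. The p-values speak only of these 2 libraries and rest on a spread borrowed largely from other genes.

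Hemogenic endothelium is the part of the vessel lining that gives rise to blood cells by an endothelial-to-hematopoietic transition, for which the transcription factor *Runx1* is required. In this transition endothelial genes are turned down and blood genes are turned on, so that single cells can be met at any point of the way. *Mecom*, which encodes the zinc finger transcription factor EVI1 and its longer MDS1-EVI1 form, and *Hlf*, a basic leucine zipper factor, are used as marks of stem cells in the fetal and adult blood system. *Adgrg1* encodes the adhesion receptor GPR56, *Neurl3* a ubiquitin ligase, *Ikzf2* the Ikaros family factor Helios, and *Bcl11a* a zinc finger repressor known for lymphoid development and globin silencing. The study put *Mecom* among the endothelial genes and the other 5 among the hematopoietic genes from which it made its scores.

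Replicate 1 held 8932527 counts from cells of 13218 to 702028 counts (median 141577), and replicate 2 held 12706360 from cells of 51620 to 956593 counts (median 238898). No cell barcode was shared between the libraries. Transcripts of the genes that defined the sort were found widely, with counts of *Pecam1* (CD31) in 86, *Cd44* in 85, *Procr* (CD201) in 80 and *Kit* in 66 of the 87 cells. Of the genes whose protein was sorted against, *Ptprc* (CD45) had counts in 3 cells and *Spn* (CD43) in 9, while *Itga2b* (CD41) had counts in 56. Cells with 100 or more counts of each of the collagen genes *Col1a1*, *Col1a2* and *Col3a1* numbered 2 in replicate 1 and 1 in replicate 2, and 1 cell of replicate 1 had fewer than 2000 genes. Levels differed between the libraries for many genes, since 26.7% of the 8695 genes with a mean CPM (counts-per-million) of at least 10 differed by more than 2-fold.

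*Adgrg1* was the most abundant of the 6 genes and *Hlf* the least. The CPM of a library was taken from a gene's counts summed over its cells and the total of that library, and because the method reads 3′ ends it does not grow with the length of a gene. *Adgrg1* had 248 CPM in replicate 1 and 175 in replicate 2 (211 ± 51.6, SD, n = 2), and *Neurl3* had 250 and 114 (182 ± 95.5). *Bcl11a* had 175 and 109 CPM (142 ± 46.9). *Mecom*, at 133 and 128 CPM (131 ± 3.60), was the one member whose level was nearly the same in both libraries. *Ikzf2* had 156 CPM in replicate 1 and 43.1 in replicate 2 (99.6 ± 79.9). *Hlf* had 79.4 CPM in replicate 1 and 19.8 in replicate 2 (49.6 ± 42.2), a 4.02-fold difference between libraries of the same kind of cell. *Runx1* itself had 300.4 and 136 CPM (218 ± 116). For every pair of neighbours in the order of the means, the means differed by less than the SD of at least 1 of the genes, and *Hlf* was the lowest of the 6 in both libraries.

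Cells ranged from no count to many counts of these genes. At least 1 count was found for *Adgrg1* in 74 of the 87 cells, *Mecom* in 73, *Neurl3* in 69, *Bcl11a* in 65, *Ikzf2* in 50 and *Hlf* in 40. Single counts are common in these tables, where 23.9% of all values above 0 are 1. The 3 cells with high collagen counts, which lay apart from the rest, held between 0 and 8 counts of each member at depths of 128053, 273118 and 193810, and all 3 had 1 count of *Hlf*. Counts under 10 were not separated from background, and cells with 10 or more counts were followed. This cut was not scaled to depth. The shallowest cell, at 13218 counts, fell under it for *Mecom* (7 counts, 530 CPM) and *Bcl11a* (6 counts, 454 CPM). *Mecom* had 10 or more counts in 40 cells, *Adgrg1* and *Neurl3* in 38 each, *Bcl11a* in 35, *Ikzf2* in 19 and *Hlf* in 14. As shares these were 46.0% (exact Clopper-Pearson 95% interval 35.2% to 57.0%) for *Mecom*, 21.8% (13.7% to 32.0%) for *Ikzf2* and 16.1% (9.09% to 25.5%) for *Hlf*, with intervals that cover counting error only and treat cells as independent.

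**Figure D1:**
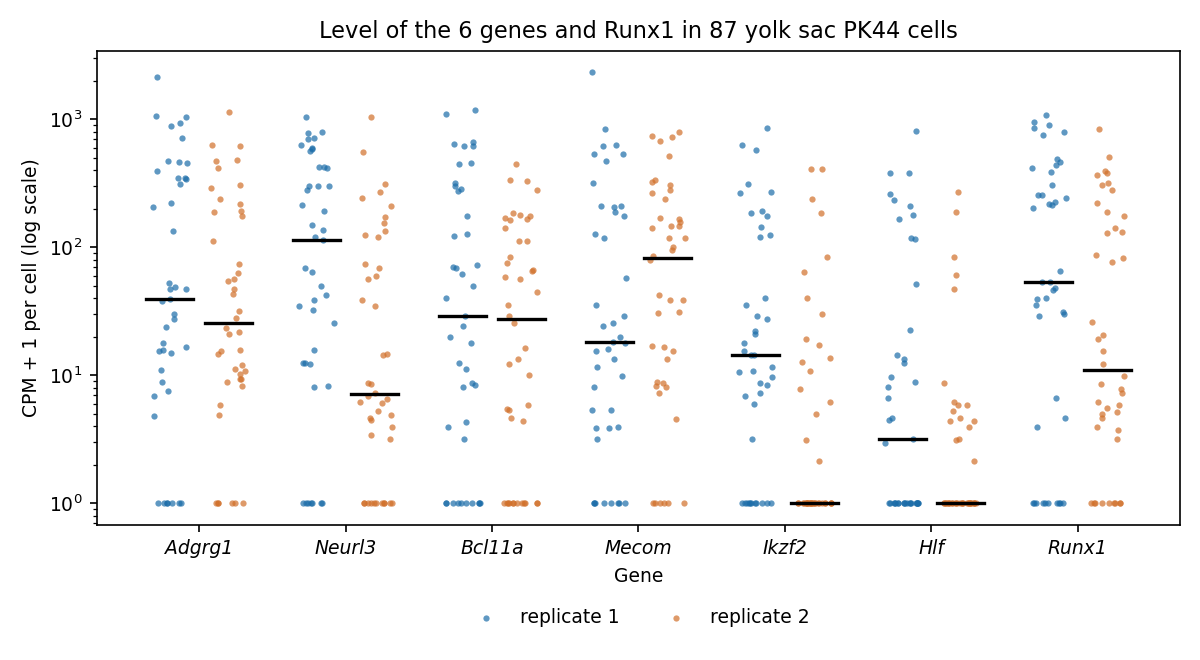
CPM + 1 per cell on a log axis for the 6 genes and *Runx1*, with 1 point per cell, replicate 1 (43 cells) on the left and replicate 2 (44 cells) on the right of each pair, and a black bar at the median cell. For every gene some cells sit at 0 and others above 100 CPM, and the median of *Ikzf2* and *Hlf* in replicate 2 is 0.

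The libraries differed in which genes were carried by many cells. *Mecom* reached 10 counts in 14 cells of replicate 1 and 26 cells of replicate 2, the deeper library, and no other member did in over 2 cells more there. *Hlf* went the other way, with 11 cells in replicate 1 and 3 in replicate 2, and so did *Neurl3*, with 23 and 15, and *Ikzf2*, with 12 and 7. *Adgrg1* had 18 and 20 such cells and *Bcl11a* 17 and 18. Thinning each cell to 20000 counts, which left out 1 cell of replicate 1, gave all cells the same depth. It did not make detection over all genes equal. The median number of genes was 2357 in cells high in *Runx1* and 2414.5 in cells low in it in replicate 1. In replicate 2 these medians were higher, at 3830 and 3406. Detection of *Mecom* was then 45.3% in replicate 1 and 59.8% in replicate 2, that of *Neurl3* 66.3% and 37.4%, and that of *Hlf* 29.4% and 11.5%. The unthinned shares of cells with a count were 81.4% and 86.4% for *Mecom*, 83.7% and 75.0% for *Neurl3* and 53.5% and 38.6% for *Hlf*.

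**Figure D2:**
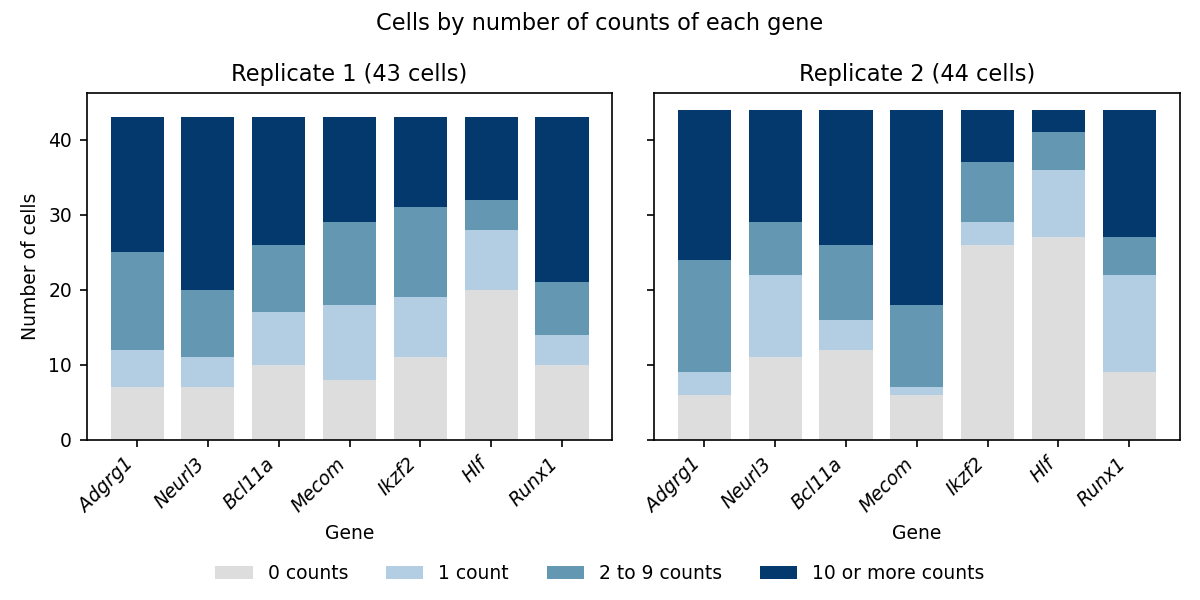
Number of cells with 0, 1, 2 to 9 and 10 or more counts of each gene, stacked, for replicate 1 (43 cells) and replicate 2 (44 cells). *Hlf* had 10 or more counts in 11 and 3 cells, and *Mecom* in 14 and 26.

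How far the counts came from a few cells differed between the members. The 3 highest cells of a library held 50.4% of its *Hlf* counts in replicate 1 and 88.8% in replicate 2, and 61.8% and 74.6% of its *Ikzf2* counts. For *Neurl3* the same share was 36.0% and 63.0%, for *Bcl11a* 49.3% and 48.1%, for *Adgrg1* 42.9% and 42.4%, and for *Mecom* 43.9% and 29.2%, the lowest of the 6 genes in replicate 2. The 3 *Hlf* cells of replicate 2 had 105, 76 and 42 *Hlf* counts, and these same cells had 353, 324 and 239 counts of *Adgrg1*, 226, 116 and 42 of *Ikzf2*, and 124, 108 and 95 of *Runx1*. Their *Neurl3* counts were 38, 49 and 531, their *Bcl11a* counts 62, 8 and 94, and their *Mecom* counts 2, 2 and 155. Their depths were 559676, 284710 and 509331 counts. So the 3 cells of replicate 2 with 10 or more *Hlf* counts also had 10 or more of *Adgrg1*, *Neurl3*, *Ikzf2* and *Runx1*. Over all 44 cells of that library, 20, 15, 7 and 17 cells reached that level of these genes.

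In replicate 1, 10 of the 11 cells with 10 or more counts of *Hlf* also had 10 or more counts of *Runx1*, 10 had *Neurl3*, 8 had *Adgrg1*, 6 had *Ikzf2* and 5 had *Mecom* at that level. Over all 43 cells of that library these were 22 for *Runx1*, 23 for *Neurl3*, 18 for *Adgrg1*, 12 for *Ikzf2* and 14 for *Mecom*. *Bcl11a* had from 0 to 157 counts in the 11 cells. Their depths ran from 20994 to 702028 counts with the middle cell at 285167, against a median of 141577 in the library. How many of all genes reached 10 counts in these cells was not computed. The highest *Hlf* count there was 147, in the deepest cell of that library, beside 148 counts of *Runx1*, 149 of *Neurl3*, 144 of *Adgrg1*, 84 of *Ikzf2*, 50 of *Bcl11a* and 2 of *Mecom*. The highest *Mecom* level of all 87 cells, 2325 CPM from 182 counts, was in a cell with 0 counts of *Hlf* and of *Ikzf2*, 3 of *Adgrg1* and of *Runx1*, 56 of *Neurl3* and 93 of *Bcl11a*. All 6 members reached 10 counts together in 2 cells of replicate 1 and 1 cell of replicate 2, and no member did in 6 and 8 cells. Cells with 4 or more members at that level had median depths of 265345 to 513197 counts in replicate 1 and 427674 to 509331 in replicate 2. For cells with 0 to 3 members the medians lay between 73084.5 and 166761 and between 137746 and 300297, in no steady order.

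Over the cells of each library the members other than *Mecom* were weakly to moderately correlated with *Runx1* (Spearman's rho of CPM, over 43 and 44 cells that share library and depth, given as a description). *Adgrg1* had a rho of 0.35 in replicate 1 and 0.52 in replicate 2, *Ikzf2* 0.36 and 0.27, *Neurl3* 0.23 and 0.41, *Bcl11a* 0.22 and 0.42, and *Hlf* 0.42 and 0.22, so the order differed between libraries, with *Hlf* highest in replicate 1 and *Adgrg1* in replicate 2. *Mecom* had -0.16 and -0.04. Over the 6540 other genes found in at least 25% of the cells of each library, the median rho with *Runx1* was 0.13 and 0.11, and 13.6% of them were above 0.2 in both libraries, as these 5 members were. When these genes were ordered by the weaker of their 2 rho values, *Adgrg1* stood at place 89, *Ikzf2* at 360, *Neurl3* at 596, *Bcl11a* at 687, *Hlf* at 701 and *Mecom* at 5749. The genes most like *Runx1* were *Kit*, the stem cell factor receptor used in the sort (0.55 and 0.50), *Erdr1* (0.50 and 0.51) and *Eif5a*, a translation factor (0.49 and 0.67).

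Depth moved with some of these values. The rho of a member with the depth of the cell ran from 0.14 (*Adgrg1*) to 0.52 (*Ikzf2*) in replicate 1 and from 0.25 (*Ikzf2*) to 0.49 (*Adgrg1*) in replicate 2 for the 5 members other than *Mecom*, which had 0.04 and -0.06. With depth held constant the rho with *Runx1* was 0.32 and 0.43 for *Adgrg1*, 0.23 and 0.20 for *Ikzf2*, 0.15 and 0.33 for *Neurl3*, 0.18 and 0.35 for *Bcl11a*, 0.33 and 0.14 for *Hlf* and -0.18 and -0.02 for *Mecom*. No value changed sign.

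Among the members, *Adgrg1* had a rho of 0.30 and 0.52 with *Neurl3*, 0.27 and 0.51 with *Bcl11a*, 0.42 and 0.35 with *Hlf*, and 0.19 and 0.27 with *Ikzf2*. *Ikzf2* had 0.39 and 0.31 with *Hlf* and 0.29 and 0.27 with *Neurl3*. *Bcl11a* with *Neurl3* (0.03 and 0.34) and with *Ikzf2* (0.02 and 0.37) had a relation in replicate 2 only by these values, and the difference between libraries was not tested. *Mecom* had a rho above 0.2 in both libraries with a single member, *Bcl11a*, at 0.27 and 0.26, and had -0.01 and -0.23 with *Neurl3*. Of all genes ordered by likeness to *Mecom*, *Bcl11a* was at place 21. In the split by *Mecom* given below, the log2 fold change of *Bcl11a* was 0.38. It turned to -0.35 when each cell was set against its neighbour in depth, and it was called in neither.

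**Figure D3:**
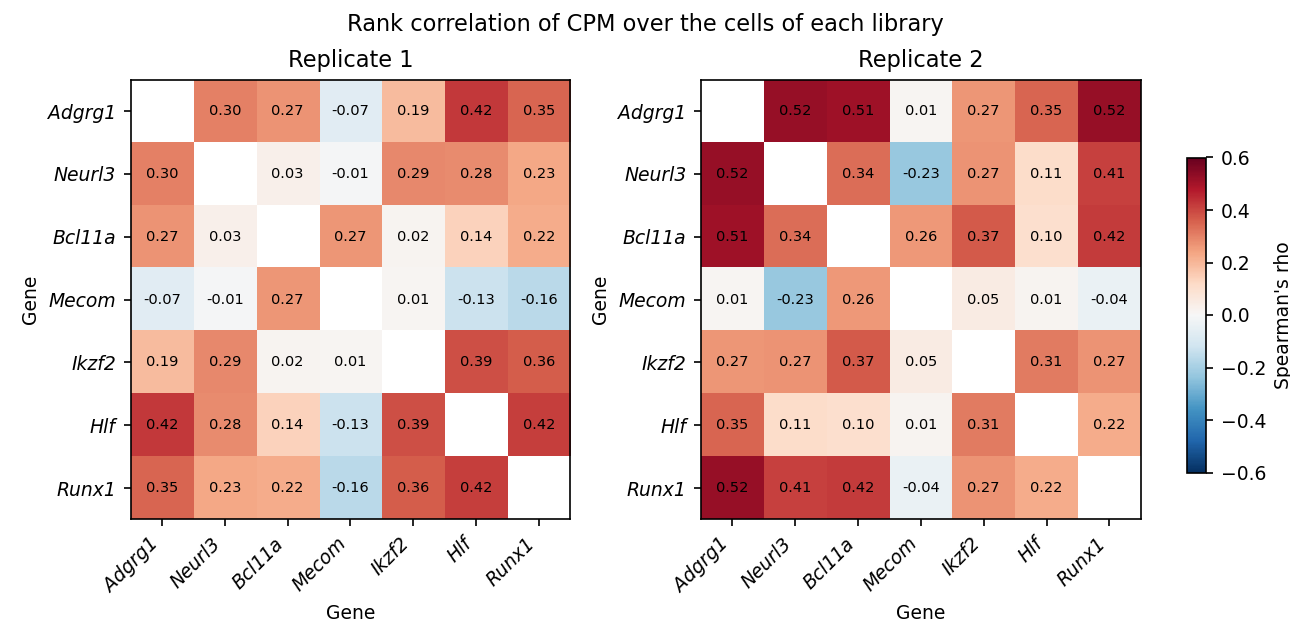
Spearman's rho of CPM between each pair of genes over the 43 cells of replicate 1 and the 44 cells of replicate 2, in colour from -0.6 to 0.6, with the value in each field. The row of *Mecom* is near 0 or below it apart from *Bcl11a* (0.27 and 0.26), and the row of *Runx1* is above 0.2 for the other 5 members in both libraries.

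The genes most alike to each member differed from member to member. For *Adgrg1* they were *Prps1*, an enzyme of nucleotide synthesis (0.58 and 0.57), *Plcg2*, a phospholipase of blood cell signalling (0.58 and 0.56), and *Serbp1* (0.56 and 0.55), and the most opposite gene was *Sparc*, a matrix protein of vessels (-0.77 and -0.60). For *Mecom* they were *Rad17* (0.39 and 0.38), *Tet2*, a DNA demethylation enzyme (0.34 and 0.37), and *Bcr* (0.38 and 0.33), and the most opposite was the ribosomal protein gene *Rplp0* (-0.48 and -0.42). *Hlf* was most like *Paip2*, *Med9* and *Npm1*, with weaker rho values of 0.43, 0.40 and 0.40. *Neurl3* was most like *Vgll4*, *Slc15a4* and *AI314180* (0.43, 0.42 and 0.42) and most opposite to *Epas1*, an endothelial hypoxia factor (-0.32 and -0.35). *Ikzf2* was most like *Celf2*, *Mybbp1a* and *Ccdc6* (0.46, 0.46 and 0.43) and most opposite to *Cldn5*, an endothelial tight junction gene (-0.43 and -0.38). *Bcl11a* was most like *Dhx15*, *Dctpp1* and *Rbm8a* (0.42, 0.41 and 0.40). These genes were picked as the highest or lowest of 6541, so their values are a description.

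*Mecom* had rho values above 0 with the endothelial genes *Cdh5*, *Sox17* and *Nrp1* in both libraries. Its rho with *Cdh5*, the junction protein VE-cadherin, was 0.33 and 0.48, while the other 5 members had values from -0.42 to -0.03 in both libraries. With *Sox17*, an arterial transcription factor, *Mecom* had 0.28 and 0.42, and *Adgrg1* had -0.42 and -0.34. With *Nrp1*, a receptor of arterial endothelium, *Mecom* had 0.09 and 0.63 and *Adgrg1* had -0.56 and -0.22. With *Lyve1*, a gene of yolk sac and lymphatic endothelium, *Mecom* had -0.10 and -0.38 and *Bcl11a* had -0.34 and -0.33. *Spi1*, the myeloid factor PU.1, was at 0.31 and 0.51 with *Ikzf2* and -0.07 and -0.02 with *Mecom*.

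Cells with 10 or more *Runx1* counts differed from cells with fewer in how many carried the other members. In replicate 1, 22 cells had 10 or more *Runx1* counts and 21 had fewer, and in replicate 2 the numbers were 17 and 27. Of the cells with fewer, 11 of 21 and 18 of 27 still had at least 1 *Runx1* count. *Adgrg1* reached 10 counts in 14 of the 22 cells against 4 of the 21 with fewer, and in 14 of 17 against 6 of 27. *Bcl11a* did in 13 against 4 and in 12 against 6, *Neurl3* in 14 against 9 and in 12 against 3, *Ikzf2* in 11 against 1 and in 5 against 2, and *Hlf* in 10 against 1 and in 3 against 0. The last of these, 0 of 27, has an exact upper 95% bound of 12.8%. *Mecom* reached 10 counts in 9 of 22 against 5 of 21 cells in replicate 1 and in 10 of 17 against 16 of 27 in replicate 2, so its share was close to equal in replicate 2, at 58.8% and 59.3%. Of the 5 members other than *Mecom*, a cell with 10 or more *Runx1* counts had on average 2.82 at that level in replicate 1. In replicate 2 it had 2.71. A cell with fewer *Runx1* counts had 0.905 and 0.630.

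**Figure D4:**
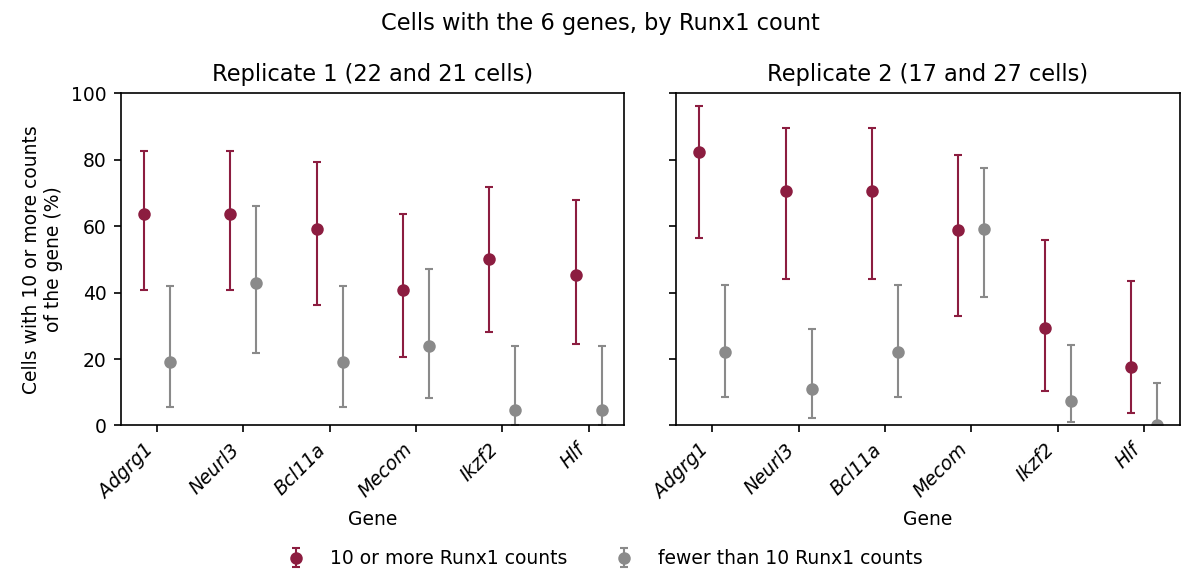
Percent of cells with 10 or more counts of each gene, among cells with 10 or more *Runx1* counts (22 and 17 cells) and among cells with fewer (21 and 27 cells), with exact 95% intervals that cover counting error only. In replicate 2 *Adgrg1* stands at 82.4% against 22.2%, and *Mecom* at 58.8% against 59.3%.

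Much of the transcriptome shared the direction of these counts. The cells with 10 or more *Runx1* counts were deeper, with median depths of 262100 against 87289 in replicate 1 and 300297 against 196757 in replicate 2. Of the 9999 comparable genes, 62.2% reached 10 counts more often in these cells in both libraries, as 5 of the 6 members did. Among 2089 genes in a range of detection near that of the members, a range chosen after the values had been seen, this was 79.8%, with median differences of 17.5 and 21.1 percentage points. CPM divides the counts by the depth and is used for the groups compared next.

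For a test, the cells of each library were split at the median CPM of *Runx1* and the counts of each group were summed, which gave 4 sums. A gene was called when its adjusted p from edgeR's quasi-likelihood test was under 0.05. *Adgrg1* had 310 CPM in the *Runx1*-high and 135 in the *Runx1*-low group of replicate 1, and 275 against 26.3 in replicate 2. *Bcl11a* had 221 against 92.0 and 164 against 26.7 CPM. *Neurl3* had 279 against 197 and 183 against 12.1 CPM. Each of these genes was higher in the *Runx1*-high group of both libraries, and both high groups lay above both low groups for *Adgrg1* and *Bcl11a* but not for *Neurl3*.

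*Ikzf2* had 203 CPM in the high and 70.9 in the low group of replicate 1, and 56.8 against 22.7 in replicate 2. *Hlf* had 100 against 41.6 and 31.0 against 2.94 CPM. For both the difference between libraries was as large as that between groups, so that the high group of replicate 2 lay below the low group of replicate 1. *Mecom* alone was lower in the high groups, at 112 against 172 and 93.4 against 180 CPM, with no overlap between high and low. Thus 5 of the 6 members were higher in the *Runx1*-high group of both libraries, as were 29.8% of all genes tested, and the groups did not overlap for 2 of the 6 in that direction and for 1 in the other, as for 20.7% and 17.1% of all genes.

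None of the 6 members was called in this test, in which 1 of 10629 genes passed (0.00941%). That gene was *Col1a1*, at a log2 fold change of -5.66, and all 3 cells with high collagen counts were in the *Runx1*-low groups. At an unadjusted p under 0.05 there were 588 genes (5.53%), among them *Adgrg1* and *Bcl11a*. No member was among the 138 genes called by DESeq2 (1.05%), the 67 called without the low-count filter (0.507%), the 2 called in thinned cells (0.0295%), the 22 in thinned cells with the library as a block (0.324%) or the 3 for 10 or more *Runx1* counts against fewer (0.0281%). The log2 fold change of the *Runx1*-high over the *Runx1*-low group was 1.80 for *Adgrg1* (SE 0.70, adjusted p = 0.854 by edgeR), 1.65 for *Bcl11a* (SE 0.65, adjusted p = 0.873), 1.51 for *Hlf* (SE 1.17, adjusted p = 0.992) and 1.43 for *Ikzf2* (SE 0.79, adjusted p = 0.937). It was 1.09 for *Neurl3* (SE 0.95, adjusted p = 1.00) and -0.81 for *Mecom* (SE 0.46, adjusted p = 0.958), beside a median of -0.01 over all genes tested. The 95% interval ran from 0.23 to 3.38 for *Adgrg1* and from 0.19 to 3.11 for *Bcl11a*, and those of the other 4 members included 0.

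Because the high and the low group of a library come from the same library, a fit that blocks on the library compares them within it. With this replicate block edgeR called 166 genes (1.56%), 40 higher (0.376%) and 126 lower (1.19%), and 3 of the 6 members were among them. *Adgrg1* rose by a log2 fold change of 2.25 (SE 0.47, adjusted p = 0.000415), *Neurl3* by 2.13 (SE 0.52, adjusted p = 0.00636) and *Bcl11a* by 1.91 (SE 0.52, adjusted p = 0.0226). *Hlf* had 2.25 (SE 1.02, adjusted p = 0.441), *Ikzf2* 1.39 (SE 0.60, adjusted p = 0.398) and *Mecom* -0.81 (SE 0.48, adjusted p = 0.704). Here edgeR gave no gene a spread of its own. The p-values of this fit were computed on 10630 degrees of freedom, against a median of 9.45 without the block. The high groups were deeper in both libraries, with median depths per cell of 260240 against 95376 and 271734 against 213444. When each cell was instead set against its neighbour in depth, the *Runx1* levels of the groups also came closer, to 517 against 101 CPM in replicate 1 and 208 against 65.0 in replicate 2, from 457 against 15.8 and 226 against 2.94. In this comparison edgeR called no gene and no member (0%) with the block or without it, and 392 and 225 genes had an unadjusted p under 0.05. *Adgrg1* then had 0.88, *Neurl3* 0.71, *Bcl11a* 1.44, *Hlf* 1.11, *Ikzf2* 2.32 and *Mecom* -0.53 without the block, and the direction of all 6 was kept.

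The size of the difference varied between the libraries. In replicate 2 alone the log2 fold change was 3.87 for *Neurl3*, 3.37 for *Adgrg1*, 3.25 for *Hlf* and 2.61 for *Bcl11a*, whereas in replicate 1 alone it was 0.45, 1.14, 1.21 and 1.21. *Ikzf2* had 1.31 in replicate 2 and 1.46 in replicate 1, and *Mecom* had -0.94 and -0.67. These are 1 sum against 1 and carry no test. In the *Runx1*-low group of replicate 2, over 22 cells, *Bcl11a* had 136 counts, *Adgrg1* 134, *Neurl3* 62 and *Hlf* 15. The cause of the larger values in replicate 2 was not tested.

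The genes around the members were read from the same fits, from lists that were chosen with earlier results of these data known. All 25 genes of the endothelial and arterial list were lower in the *Runx1*-high groups, with a median log2 fold change of -1.27 and none called without the block, and 11 of them fell with it, among them *Gja5* (-2.89), *Kdr* (-1.61), *Nrp1* (-1.41) and *Cdh5* (-1.20). With depth neighbours 21 of the 25 were lower and 4 higher, with a median of -0.52 and none called. All 8 venous and yolk sac endothelial genes were lower too, with a median of -1.57, none called without the block and 5 with it, among them *Stab1* (-2.34) and *Lyve1* (-1.21). All 8 were lower with depth neighbours as well, with a median of -0.978 and none called. *Mecom*, at -0.81, was not called in either fit. Its sign was not that of every measure, since 8 cells of the high and 6 of the low group of replicate 1 had 10 or more *Mecom* counts, and in replicate 2 the median cell had 81.4 CPM in the high and 67.6 in the low group. When the cells were split by *Mecom* instead, *Runx1* had a log2 fold change of 0.45 (SE 0.54) without the block and was not called. Over all 10629 genes tested, 5282 were higher and 5347 lower without the block. Of the 18 tested factors of the endothelial-to-hematopoietic switch, 13 were higher and 5 lower, and *Ikzf1*, the Ikaros gene and a paralog of *Ikzf2*, rose in the block fit (2.98, adjusted p = 0.00069). Of the 21 tested other stem cell genes 11 were higher and 10 lower, with a median of 0.20, and *Kit* (1.95) and *Mycn* (2.92) rose in the block fit. Among 9 tested paralogs of the members 7 were higher, and *Adgrg6*, an adhesion receptor related to *Adgrg1*, fell in the block fit (-2.85, adjusted p = 0.00285) while *Adgrg1* rose. With depth neighbours none of these genes was called, at 1.15 for *Ikzf1*, 0.42 for *Kit*, 0.96 for *Mycn* and -0.26 for *Adgrg6*.

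Summed levels of genes of other cell types differed between the groups. The 9 macrophage genes summed to 149 and 38.1 CPM in the high and low groups of replicate 1 and to 128 and 32.7 in replicate 2, with 5 or 6 of them at 0 in each group, and only *Lyz2*, *Fcgr3* and *Tyrobp* passed the filter on low counts. The 10 genes of primitive red cells were also higher in the high groups, at 18.2 against 4.41 CPM in replicate 1 and 33.1 against 6.47 in replicate 2, with 6 to 9 of them at 0 in each group. The 8 genes of visceral endoderm summed to between 0 and 19.5 CPM. The 6 megakaryocyte genes had 14.1 CPM in the high and 171 in the low group of replicate 1 but 110 against 48.8 in replicate 2, with 3 or 4 of them at 0. The 8 mesenchymal genes summed to 2426 and 818 CPM in the low groups and to 66.3 and 23.7 in the high groups. Without the cells with high collagen counts and the cell with fewer than 2000 genes, edgeR called no gene (548 at an unadjusted p under 0.05), and the members had 1.70 (*Adgrg1*), 1.55 (*Bcl11a*), 1.39 (*Hlf*), 1.33 (*Ikzf2*), 0.84 (*Neurl3*) and -0.88 (*Mecom*). The 13 cell cycle genes summed to 3965 against 2914 CPM and 3715 against 2956, with 8 higher, 5 lower and none called in either fit. The part of these lists in the members' values was not tested.

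Splitting the cells at the median CPM of *Mecom* asked whether the other 5 members follow it. *Adgrg1* had 267 CPM in the *Mecom*-high and 229 in the *Mecom*-low group of replicate 1, and 179 against 170 in replicate 2. *Bcl11a* had 178 against 173 and 143 against 70.2 CPM. *Neurl3* had 292 against 208 and 127 against 100.1 CPM. *Hlf* had 105 against 54.8 CPM in replicate 1 but 9.33 against 31.6 in replicate 2, and *Ikzf2* had 164 against 148 but 28.3 against 59.9, so for these genes the libraries went opposite ways. *Runx1* had 363 against 239 and 143 against 129 CPM. It was thus higher in the *Mecom*-high group of both libraries, whereas *Mecom* was lower in both *Runx1*-high groups. The sign for this pair depended on which gene split the cells. Of the 5 members, 3 were higher in the *Mecom*-high group of both libraries, as were 25.5% of all genes tested, and the groups overlapped for all 5, while 29.7% of all genes had groups that did not overlap.

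Of the 10670 genes tested by edgeR none was called (0%), with 201 (1.88%) at an unadjusted p under 0.05, and DESeq2 called 4 (0.0303%) with no member among them. The log2 fold change of the *Mecom*-high over the *Mecom*-low group was 0.43 for *Neurl3* (95% interval -0.80 to 1.67), 0.40 for *Hlf* (-1.81 to 2.62), 0.38 for *Bcl11a* (-0.81 to 1.58), 0.15 for *Adgrg1* (-0.80 to 1.10) and -0.12 for *Ikzf2* (-1.89 to 1.66), with an adjusted p of 1.00 in edgeR for each. These intervals leave room for a rise of over 2-fold for all 5 members, and for a fall of that size for *Hlf* and *Ikzf2*. The fit with the replicate block called 7 genes (0.0656%), 3 higher (0.0281%) and 4 lower (0.0375%), and none of the 5 members. Nor was one among the 2 genes called without the low-count filter (0.0151%), the 2 in thinned cells (0.0288%), the 5 in thinned cells with the block (0.072%) or the 2 for 10 or more *Mecom* counts against fewer (0.0189%). The 3 that rose were *8430408G22Rik* (2.102), *Npr3*, a natriuretic peptide receptor (2.24), and *Lama4*, a laminin of vessel walls (3.37). The 4 that fell were *Hspb1*, a small heat shock protein (-2.13), the collagen genes *Col1a2* (-2.43) and *Col1a1* (-2.73), and *Ddah1* (-1.87). The 8 mesenchymal genes summed to 737 against 1068 CPM in the *Mecom*-high and *Mecom*-low groups of replicate 1 and to 28.7 against 699 in replicate 2. Of the 24 tested endothelial and arterial genes 21 were higher in the *Mecom*-high groups, with a median of 0.53, and of the 8 venous and yolk sac genes 7 were lower, with a median of -0.998. Over all 10670 genes tested, 5299 were higher and 5371 lower. With depth neighbours 20 of 25 endothelial and arterial genes were higher and 5 of 8 venous and yolk sac genes lower, with medians of 0.39 and -0.13. No gene of either list was called.

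**Figure D5:**
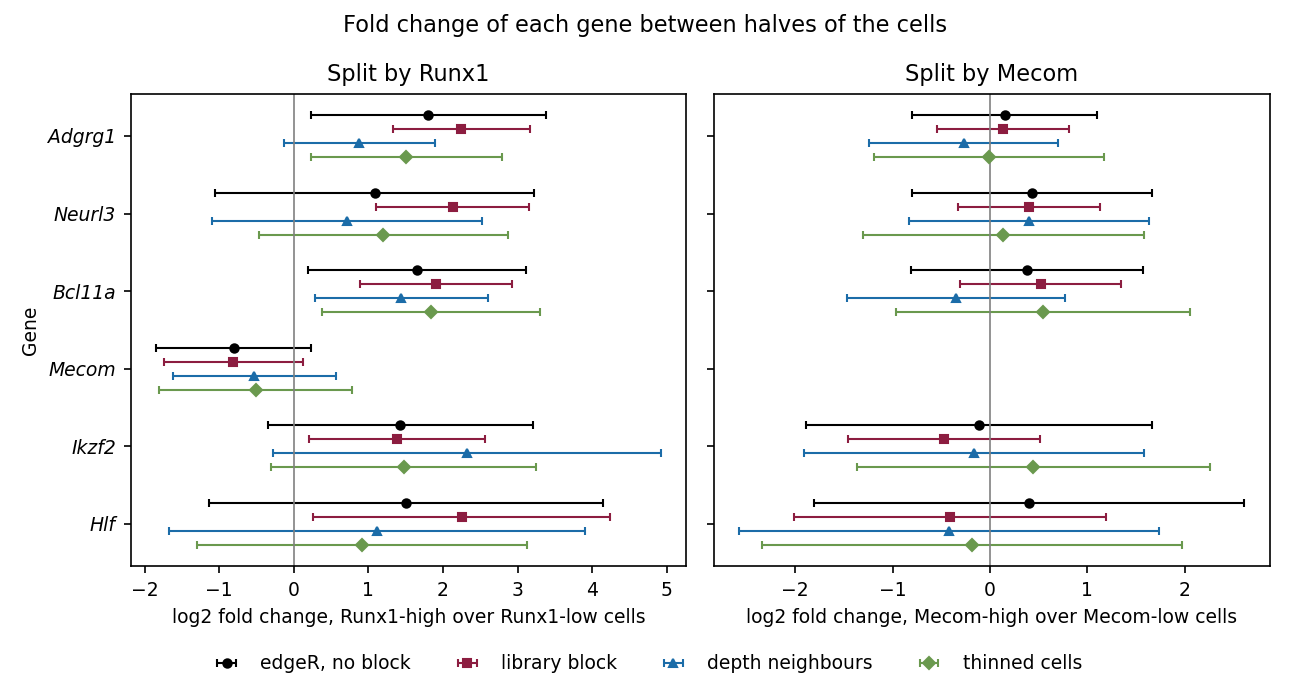
Log2 fold change of each gene between the high and low group of the cells, split by *Runx1* (left) and by *Mecom* (right), with 95% intervals, for edgeR without a block, with the library as a block, with cells set against their neighbour in depth, and with cells thinned to 20000 counts. On the left 5 genes lie above 0 and *Mecom* below in all 4 settings, and on the right every interval includes 0.

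In the genome the members lie apart, apart from a chromosome shared by 2 pairs. On GRCm38 with GENCODE M21 annotation *Mecom* is at chr3:29951296-30548008 on the minus strand, *Hlf* at chr11:90336536-90390895 on the minus strand, *Bcl11a* at chr11:24078056-24174123 on the plus strand, *Adgrg1* at chr8:94974751-95014217 on the plus strand, *Neurl3* at chr1:36264597-36274679 on the minus strand and *Ikzf2* at chr1:69531214-69687245 on the minus strand. All are protein coding. Exons of *Mecom*, *Ikzf2* and *Bcl11a* overlap those of the antisense genes *Mecomos*, *Gm29114* and *4930538E20Rik*, and exons of *Runx1* overlap those of the antisense gene *Gm26626*. As no source used here states whether strand was used in counting, reads of such partners cannot be told apart. The counts do not separate the EVI1 and MDS1-EVI1 forms of *Mecom* where they share a 3′ end.

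Promoters of the members were read for the words of transcription factors of hemogenic endothelium. RefSeq starts on GRCm38.p6 were found for 5 of the 6 members, with 2 each for *Mecom* and *Adgrg1*. The 250 bases before each start, apart from those of *Hlf*, lay inside the GENCODE span of the gene and overlapped an exon of it. Bases just after the *Hlf* start were not found in a GENCODE transcript of *Hlf*. In the 250 bases before each of the 7 starts, the RUNX words TGTGGT and TGCGGT were not found on either strand, and 18.6% of 32851 mouse promoters of the same length hold one. The GATA words AGATAA and TGATAA, held by 16.6% of promoters, were found at *Mecom* and *Neurl3*, and the ETS words AGGAAG and CGGAAG, held by 39.2%, also at *Mecom* and *Neurl3*. No word overlapped another. These 4 stretches of 30 bases are shown 5′ to 3′ on the strand of the gene, with the word in capitals. They lie at chr3:30509773-30509802 and chr3:30013230-30013259 before the upstream and downstream start of *Mecom*, and at chr1:36273575-36273604 and chr1:36273433-36273462 before *Neurl3*, all on the minus strand.
Mecom upstream start, GATA: tccaaatcaaagTGATAAatcgctccaaac
Mecom downstream start, ETS reverse strand: cccgtcgtctggCTTCCGaccactctggag
Neurl3, GATA reverse strand: ctgcttcccttcTTATCTcagaccagcctg
Neurl3, ETS reverse strand: taaaaggggaacCTTCCGgagtcttgtaac
A match of letters is a description, and a window without one says only that these letters are not in it.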

How the data were processed

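The authors split reads by cell barcode, trimmed them, aligned them to the mm10 transcriptome with HISAT2 2.1.0, counted genes with HTSeq and removed duplicates by unique molecular identifier. The deposited values are raw counts per gene and cell, from which the authors had taken out low-quality cells. All 87 cells were kept and no doublet caller was run.

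CPM was computed per cell and per library, with exact 95% intervals (Poisson or Clopper-Pearson) for counting error alone. Spearman's rho was taken within each library. Cells were split at the median CPM of *Runx1*, or of *Mecom*, within each library, and the 4 sums were tested by edgeR 4.0.16 under R 4.3.3 (quasi-likelihood test without a block, after filterByExpr and TMM, with Benjamini-Hochberg adjustment at 0.05), without the splitting gene in the adjustment. Sums of 1 library share its replicate number, so the number pairs them. Their deviations correlated at 0.177 for the *Runx1* split and 0.199 for the *Mecom* split over 10629 and 10670 genes. Alternatives were DESeq2 1.42.0, RLE size factors, no low-count filter, the replicate block, each library alone, outer tertiles, a count against none, thinned cells, depth neighbours and leaving out doubtful cells. Scripts were tested on simulated data. Python 3.11.15, pandas 2.3.3 and scipy 1.17.1 made the tables. Of 23154 symbols, 22127 (95.6%) matched GENCODE M21.

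Named genes were the members and *Runx1*, the 3 genes most alike to each member, up to 4 genes of a list by level with all genes of the sort, and called genes by p. *Gja5*, *Sox17*, *Spi1*, *Ikzf1*, *Adgrg6*, *Mycn* and the most opposite genes were named after their values were seen where these parts did not name them. The members and lists were chosen with earlier results of these data known.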

Additional observations from a re-analysis of the deposited data

How the results depend on the processing

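Only 4 sums in 2 libraries were tested, so the calls rest mainly on the spread borrowed from other genes, and the spread between libraries whose cells are not tied to embryos need not be biological. Shallow cells limit what a count of 0 says, and members under 10 counts were not separated from background.

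For the *Runx1* split, all 6 members kept their direction in every alternative, and none was called except with the replicate block, where the pairing of the sums by library gave 3. The number of genes called was 1 without the block, 166 with it, 138 in DESeq2, 67 without the low-count filter, 2 in thinned cells, 22 in thinned cells with the block, 3 for 10 or more *Runx1* counts against fewer, and 0 for outer tertiles, for a count against none, for depth neighbours with or without the block and without doubtful cells. With a count against none the median of all genes was 0.14, against -0.01 for the median split. The split at 10 counts and the combinations of depth and block were chosen after seeing the data.

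For the *Mecom* split, no member was called in any alternative. The genes called were 0 without the block, 7 with it, 4 in DESeq2, 2 without the filter, 2 in thinned cells, 5 in thinned cells with the block and 2 for the split at 10 counts. Log2 fold changes that turned were those of *Hlf* with the replicate block (-0.41), in outer tertiles (-0.27), thinned cells (-0.18), depth neighbours (-0.42 without and -0.90 with the block), the split at 10 counts (-0.12) and single libraries (-1.74 to 0.92). *Adgrg1* turned in outer tertiles (-0.14), thinned cells (-0.013), depth neighbours (-0.27 in both fits) and the split at 10 counts (-0.19). *Ikzf2* turned for a count against none (1.12), in thinned cells (0.45 without and 0.56 with the block) and in single libraries (-1.10 to 0.15), and *Bcl11a* in depth neighbours (-0.35 and -0.33). The cause was not tested.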
